A study of Mus musculus with 96 samples.

Results

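The genes of the mitochondrial ribosomal proteins were described in the brown and white fat of Ucp1-KO mice, in which the gene of uncoupling protein 1 is disrupted, and of wild-type mice. Genes were chosen by name: every symbol made of Mrpl or Mrps and a number, pseudogenes left out, gave 76 genes of 29072 in the deposited table. Of these, 47 have Mrpl symbols and 29 have Mrps symbols. Each gene was represented by the transcript with the highest mean level over all 96 libraries.

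Mitochondria hold their own ribosome, which makes the few respiratory chain subunits encoded by mitochondrial DNA. Its proteins are all encoded in the nucleus and imported, while its ribosomal RNAs come from the mitochondrial genome. The small subunit reads the messenger RNA and the large subunit joins the amino acids. Some of the proteins have bacterial counterparts and others exist only in mitochondria. Brown fat is rich in mitochondria, and its cells burn fuel to make heat, in wild-type animals through Ucp1, which lets protons leak across the inner membrane.

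All mice were male C57BL/6J, and each of the 12 groups held 8 libraries. The depots were iBAT, the brown fat between the shoulder blades, and iWAT, the inguinal white fat, from Ucp1-KO and wild-type mice. Each genotype spent 4 weeks at 20 °C with control food, at 30 °C with control food or at 30 °C with high fat food. Fat supplied 13% of the energy of the control diet and 48% of that of the high fat diet. A temperature of 30 °C is thermoneutral for a mouse, and 20 °C is mild cold. The sources used here do not give ages, and nothing in the labels says which iBAT and iWAT libraries come from 1 mouse.

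Values are RPKM, reads scaled by transcript length and by library depth, so levels can be compared between genes. Library depth, in units of 1000000 reads, was 8.91 to 19.2 with a median of 11.8, as recovered from the spacing of their low values. Ucp1 was lower in every Ucp1-KO iBAT library (546 to 1145 RPKM) than in any wild-type iBAT library (2428 to 9281 RPKM). The 6 brown adipocyte markers, Ucp1 included, were higher in iBAT in all 6 comparisons of the depots. Epithelial markers summed to at most 0.837 RPKM in any iBAT library. In iWAT libraries Epcam reached 25.6 RPKM and Krt8 17.2 RPKM, and the part of epithelial cells was not tested. In 15 libraries the summed RPKM of the other genes passed 430000, against a range over all libraries of 359741 to 467619, and these libraries also had high levels of the ribosomal protein genes.

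By role, 49 of the 76 proteins belong to the large subunit and 26 to the small subunit. Mrps30 and Mrps18a carry small subunit names but sit in the large subunit. Mrps36 was assigned to neither, because its product is known as a component of the 2-oxoglutarate dehydrogenase complex. A bacterial counterpart is known for 45 proteins and 30 are specific to mitochondria.

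Promoters are printed for genes at the extremes of a comparison of the depots and of the comparison of genotypes in iBAT, each at 30 °C with control diet. Mrpl34 had the largest rise in iBAT over iWAT in wild-type mice and Mrpl49 the 1 fall in Ucp1-KO mice. Mrpl27 and Mrpl39 had the largest rise and the largest fall in Ucp1-KO against wild-type iBAT. The sequences are from RefSeq (GRCm38.p6), run 5′ to 3′ on the gene's strand, and cover 250 bases before and 50 bases after the annotated start. Capitals mark matches, on either strand, to the motifs searched. They lie at chr8:71464676-71464975 on the plus strand for Mrpl34, chr19:6057706-6058005 on the minus strand for Mrpl49, chr11:94653541-94653840 on the plus strand for Mrpl27 and chr16:84735195-84735494 on the minus strand for Mrpl39.
Mrpl34: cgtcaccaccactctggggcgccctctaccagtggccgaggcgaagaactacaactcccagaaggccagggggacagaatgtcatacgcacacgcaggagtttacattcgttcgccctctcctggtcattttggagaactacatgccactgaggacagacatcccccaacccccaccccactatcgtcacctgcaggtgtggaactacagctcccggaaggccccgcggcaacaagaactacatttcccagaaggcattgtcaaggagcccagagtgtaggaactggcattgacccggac
Mrpl49: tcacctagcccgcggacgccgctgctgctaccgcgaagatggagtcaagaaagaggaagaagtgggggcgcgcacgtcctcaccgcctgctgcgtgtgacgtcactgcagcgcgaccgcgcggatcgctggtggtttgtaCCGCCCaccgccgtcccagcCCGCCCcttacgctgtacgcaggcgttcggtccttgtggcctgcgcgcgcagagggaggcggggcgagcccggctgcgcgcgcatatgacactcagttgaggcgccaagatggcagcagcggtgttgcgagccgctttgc
Mrpl27: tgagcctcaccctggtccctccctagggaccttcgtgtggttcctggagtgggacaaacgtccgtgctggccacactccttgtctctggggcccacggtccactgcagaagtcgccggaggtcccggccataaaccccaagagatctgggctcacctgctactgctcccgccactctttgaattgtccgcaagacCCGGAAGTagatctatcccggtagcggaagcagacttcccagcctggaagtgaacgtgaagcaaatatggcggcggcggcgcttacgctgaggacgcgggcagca
Mrpl39: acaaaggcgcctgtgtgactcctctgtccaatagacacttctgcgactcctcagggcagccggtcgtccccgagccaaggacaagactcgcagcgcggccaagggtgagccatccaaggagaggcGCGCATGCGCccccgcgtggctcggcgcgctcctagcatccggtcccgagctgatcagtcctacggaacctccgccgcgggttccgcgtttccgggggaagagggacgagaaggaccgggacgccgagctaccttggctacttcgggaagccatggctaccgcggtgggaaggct

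The motifs searched were the cores of nuclear respiratory factor 1 (GCGCATGC), ETS factors such as GABP (CCGGAAGT), YY1 (AAGATGGCG), SP factors (GGGCGG) and estrogen-related receptors (AAGGTCA), each on both strands. The Mrpl39 promoter held a nuclear respiratory factor 1 core that matched on both strands at overlapping positions, the Mrpl27 promoter an ETS core, and the Mrpl49 promoter 2 SP cores on the other strand. The Mrpl34 window held none of these letter runs. Promoters were found for 67 of the 76 genes. A nuclear respiratory factor 1 core stood in 8 of these 67 (11.9%), against 3.05% of 27025 genes with a promoter in the table. An ETS core stood in 12 (17.9%, against 4.31%), a YY1 core in 8 (11.9%, against 1.64%), an SP core in 33 (49.3%, against 38.2%) and an estrogen-related receptor core in 4 (5.97%, against 5.38%). A match describes the letters only.

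Mean levels over all libraries ran from 0.417 RPKM for Mrps36 to 88.8 RPKM for Mrpl20. Mrpl12, the stalk protein that recruits translation factors and is also reported to bind the mitochondrial RNA polymerase, followed at 81.0 RPKM. Mrpl30 was at 80.9 RPKM, Mrpl17 at 74.1 RPKM, Mrpl33 at 71.3 RPKM and Mrpl34 at 70.1 RPKM. Next to Mrps36, the lowest were Mrps33 at 4.07 RPKM and Mrps18b at 9.86 RPKM. These levels are those of 1 transcript per gene, and they ranked differently when the transcripts of a gene were summed: Mrpl24 moved from rank 7 to rank 1 and Mrpl34 from rank 6 to rank 31. The deposited data list 13 transcripts for Mrpl24 and 2 for Mrpl34. Ranks by sum thus also depend on how many transcripts are listed and are not ranks of abundance alone.

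The summed level of the 76 genes was higher in iBAT than in iWAT. On control diet at 20 °C the lowest, median and highest libraries of iBAT held 3248, 3435 and 4378 RPKM in Ucp1-KO mice and 2970, 3212 and 4247 RPKM in wild-type mice. On control diet at 30 °C they held 2600, 2876 and 4202 RPKM in Ucp1-KO iBAT and 2837, 3231 and 3761 RPKM in wild-type iBAT. With high fat diet they held 2505, 2723 and 3324 RPKM in Ucp1-KO iBAT and 2554, 2865 and 3470 RPKM in wild-type iBAT. The genotypes overlapped in iBAT under each condition.

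In iWAT the same sums at 20 °C were 2017, 2240 and 3124 RPKM in Ucp1-KO mice and 1686, 1905 and 2491 RPKM in wild-type mice. On control diet at 30 °C they were 1844, 2005 and 2343 RPKM in Ucp1-KO iWAT and 1617, 1651 and 1773 RPKM in wild-type iWAT. Under high fat diet they were 1590, 1789 and 2012 RPKM in Ucp1-KO iWAT and 1673, 1750 and 2019 RPKM in wild-type iWAT. The 8 Ucp1-KO libraries lay above the 8 wild-type libraries in iWAT at 30 °C on control diet, and the genotypes overlapped in the other conditions. In such bulk tissue, fewer cells of a type and less RNA per cell cannot be told apart.

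**Figure D1:**
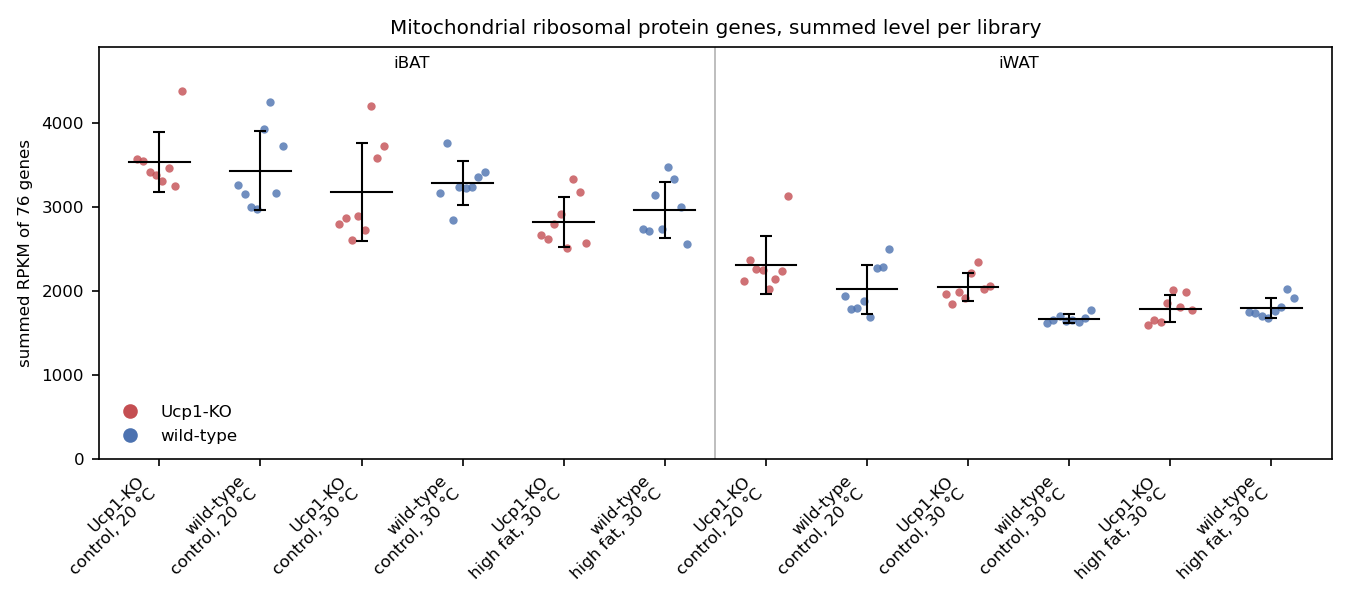
Summed RPKM of the 76 mitochondrial ribosomal protein genes (vertical axis) in each of the 96 libraries, by tissue, condition and genotype; points are libraries, horizontal lines group means and error bars SD (n = 8). Group medians are 2723 to 3435 RPKM in the iBAT groups and 1651 to 2240 RPKM in the iWAT groups.

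Across the libraries of a group, the summed level moved with the library total. The summed level and the summed RPKM of all other genes had r = 0.937 over the 96 libraries after group means were taken out, on log scales with a slope of 1.89. Both quantities come from the same library, so this is a description. The 15 libraries with more than 430000 RPKM in other genes fell in 6 iBAT groups (1 to 3 each), in Ucp1-KO iWAT at 20 °C (1) and in wild-type iWAT at 20 °C (2). Its part in the results was not tested beyond the values given without those libraries and with the library total as a covariate.

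**Figure D2:**
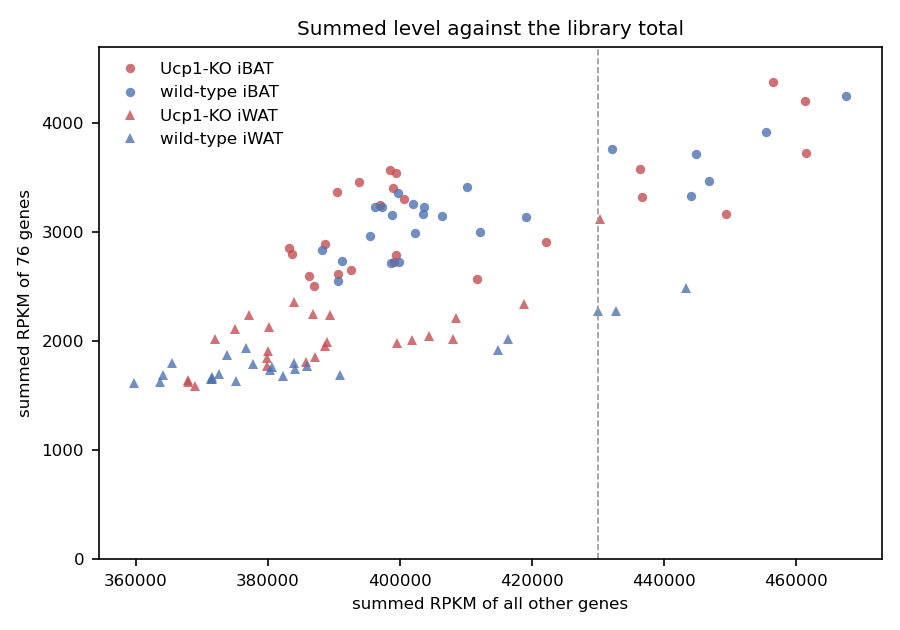
Summed RPKM of the 76 genes (vertical axis) against the summed RPKM of all other genes (horizontal axis), 1 point per library, coloured by genotype and shaped by tissue; the dashed line stands at 430000. Within groups, libraries with a higher total tend to have a higher sum of the 76 genes (r = 0.937 over the 96 libraries with group means taken out), with exceptions.

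Of the 76 genes, 63 to 73 were higher in iBAT than in iWAT in each of the 6 comparisons of genotype and condition, and 57 in all of them. Of all genes tested, at most 15.8% can have been higher in all 6, the lowest share of a single comparison. The 76 include Mrps36, which could not have entered this fit without its iBAT libraries. In Ucp1-KO mice, 69 of 76 were higher and 1 lower at 20 °C (background 20.2% higher and 42.7% lower over the 16310 genes tested). On control diet at 30 °C, 69 were higher and 1 lower (background 26.3% and 35.8%), and on high fat diet 66 were higher and 1 lower (background 24.5% and 45.0%). In wild-type mice, 68 were higher and 1 lower at 20 °C (background 15.8% and 64.4%). There were 73 higher and 0 lower on control diet at 30 °C, also 0 lower at an unadjusted p below 0.05 (background 19.5% and 61.8%), and 63 higher and 2 lower on high fat diet (background 16.7% and 61.9%). Calls are adjusted p below 0.05 by limma over all genes tested, on log2(RPKM + 1). Background shares here and below belong to this fit, and none is given for other scalings, covariates or sets of libraries.

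Immune cell markers also differed between the depots. All 5 B cell and all 6 T cell markers tested were lower in iBAT in each of the 6 comparisons. Of all genes tested, 35.8% to 64.4% were called lower in these comparisons. At 20 °C in wild-type mice the B cell markers summed to 0.131 to 1.06 RPKM in iBAT and 187 to 321 RPKM in iWAT, and the T cell markers to 0.713 to 1.75 RPKM and 103 to 200.3 RPKM. On control diet at 30 °C in Ucp1-KO mice the B cell sums were 1.50 to 5.85 RPKM in iBAT and 16.5 to 307 RPKM in iWAT. Macrophage markers were lower in iBAT for 10 of 10 in wild-type mice in each condition. In Ucp1-KO mice 0 were higher and 7 lower at 20 °C, 7 and 2 at 30 °C on control diet and 4 and 3 with high fat diet. At 30 °C on control diet their sums were 430 to 1907 RPKM in Ucp1-KO iBAT and 255 to 619 RPKM in Ucp1-KO iWAT. The part of these cells in the depot result was not tested.

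The median difference between depots at 30 °C on control diet was 0.55 on the log2 scale in Ucp1-KO mice and 0.80 in wild-type mice, against medians over all genes of -0.07 and -0.43. At 20 °C it was 0.61 in Ucp1-KO and 0.74 in wild-type mice (all genes -0.15 and -0.43). With high fat diet it was 0.58 in each genotype (all genes -0.16 and -0.41). Large and small subunit genes had similar medians in wild-type mice at 30 °C, 0.78 and 0.85, as did genes with a bacterial counterpart and mitochondria-specific genes, 0.82 and 0.79. No gene had all 48 iBAT libraries above all 48 iWAT libraries. At 30 °C with control diet, the 8 iBAT libraries lay above the 8 iWAT libraries for 42 genes in Ucp1-KO and 63 genes in wild-type mice. Of all genes tested, 12.1% in Ucp1-KO and 13.0% in wild-type mice lay apart in that direction.

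Mrpl34, a large subunit protein with a bacterial counterpart, had the largest difference in wild-type mice at 30 °C on control diet. In Ucp1-KO mice it had lowest, median and highest levels of 66.7, 88.1 and 143 RPKM in iBAT and 31.9, 36.0 and 41.4 RPKM in iWAT. In wild-type mice it had 109, 124 and 159 RPKM in iBAT and 18.9, 22.1 and 25.1 RPKM in iWAT. The depots did not overlap in either genotype. The differences were 1.30 ± 0.11 (SE) in Ucp1-KO and 2.48 ± 0.11 in wild-type mice, with adjusted p by limma of 3.2e-18 and 4e-36.

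Mrps2, a small subunit protein with a bacterial counterpart, had 41.8, 48.0 and 64.9 RPKM in Ucp1-KO iBAT and 18.9, 21.0 and 25.9 RPKM in Ucp1-KO iWAT, a difference of 1.18 ± 0.08. In wild-type mice it had 44.3, 53.0 and 61.6 RPKM in iBAT and 12.3, 14.2 and 15.6 RPKM in iWAT, a difference of 1.86 ± 0.08. Again no iBAT library reached down to the iWAT libraries. Mrpl12 differed by 1.10 ± 0.11 in Ucp1-KO and 1.77 ± 0.11 in wild-type mice, Mrps23, a mitochondria-specific small subunit protein, by 1.07 ± 0.08 and 1.73 ± 0.08, and Mrpl42 by 1.02 ± 0.11 and 1.68 ± 0.11. In Ucp1-KO mice under this condition the largest difference was that of Mrpl47, which lies near the exit of the peptide tunnel, at 1.33 ± 0.10. Each passed the test.

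Across the 6 comparisons of the depots, 57 genes were higher in iBAT every time. Another 8 were higher in 5 of them, namely Mrpl11, Mrpl14, Mrpl22, Mrpl32, Mrpl33, Mrps18c, Mrps30 and Mrps36. Mrps36 passed the filter on low values in iBAT and not in iWAT. It could not have entered the depot fit without its iBAT libraries, so its calls there lean on the filter. The share of all genes tested that were higher in 5 or in all 6 was not computed. For all 6 it cannot pass 15.8%, the lowest share of a single comparison. Among genes with known roles, Mrpl44, which resembles ribonuclease III, was higher by 0.58 ± 0.07 in Ucp1-KO and 0.78 ± 0.07 in wild-type mice at 30 °C. Mrpl3, of the peptidyl transferase region, was higher by 0.67 ± 0.10 and 1.15 ± 0.10. Mrps12, of the decoding centre, was higher by 0.36 ± 0.10 and 0.60 ± 0.10. Mrps16, in which human mutations impair mitochondrial translation, was higher by 0.46 ± 0.11 and 1.01 ± 0.11. Mrpl41 had 0.10 ± 0.11 in Ucp1-KO mice, where it did not pass the test, and was higher by 0.48 ± 0.11 in wild-type mice; the difference between genotypes was not tested.

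**Figure D3:**
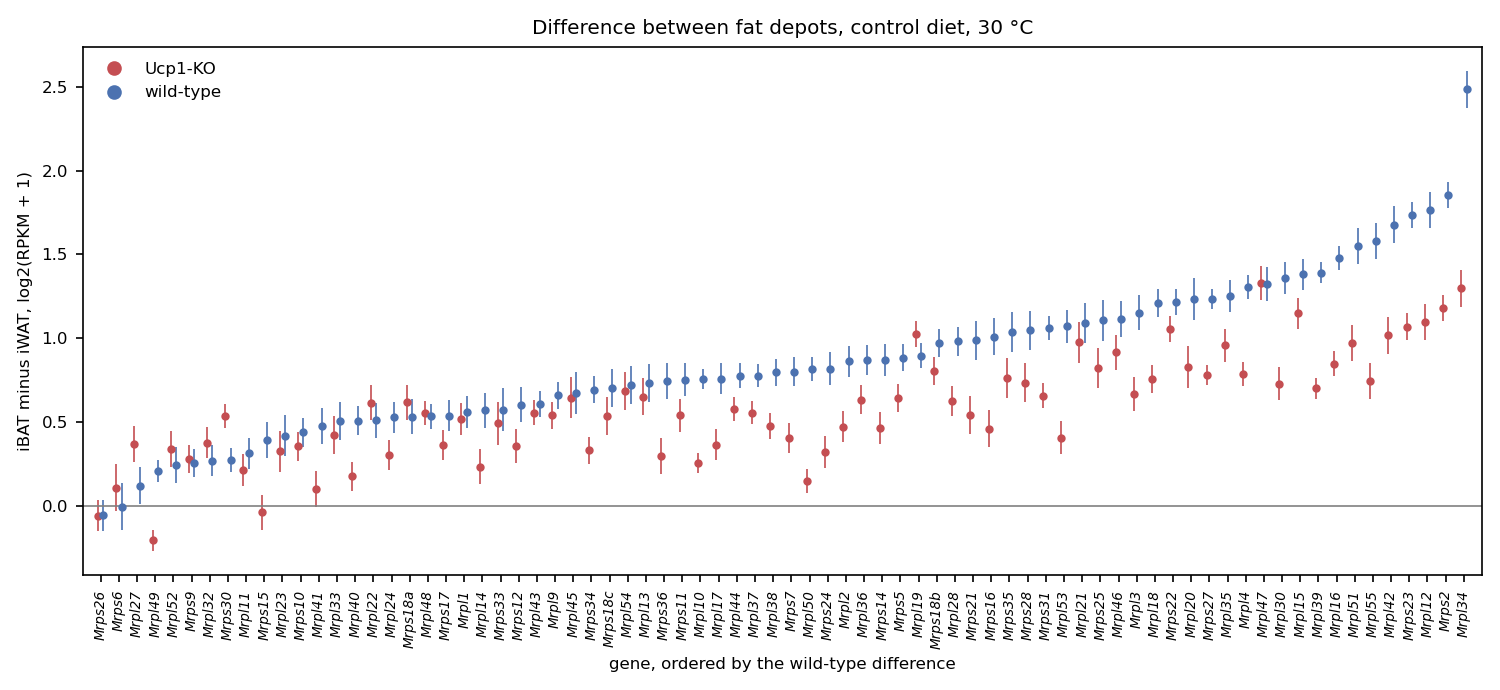
Difference iBAT minus iWAT in log2(RPKM + 1) (vertical axis) for each of the 76 genes on control diet at 30 °C, ordered by the wild-type difference, with 1 point per genotype and gene and error bars of 1 SE. Most points lie above 0, and Ucp1-KO values reach 1.33 while wild-type values reach 2.48.

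The exceptions were Mrps6, Mrps26 and Mrpl49. Mrps26 and Mrps6 were higher in iBAT in no comparison. Mrps6 fell below iWAT in wild-type mice at 20 °C by 0.45 ± 0.14 and on high fat diet by 0.52 ± 0.14, and Mrps26 on high fat diet by 0.30 ± 0.09. After median-ratio scaling the first of these differences was 0.11 and that of Mrps26 0.18. Mrps6 shares exon bases on the same strand with Slc5a3, a myo-inositol transporter gene, and Gm49711 in the GENCODE vM21 annotation, so its reads may not be its own.

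Mrpl49, a mitochondria-specific large subunit protein, was lower in iBAT than in iWAT of Ucp1-KO mice in all 3 conditions, by -0.32 ± 0.06 at 20 °C, -0.21 ± 0.06 at 30 °C and -0.29 ± 0.06 with high fat diet. In wild-type mice it was higher in iBAT at 30 °C by 0.21 ± 0.06. It was also lower in Ucp1-KO than in wild-type iBAT in each condition. At 20 °C it had 12.5, 15.9 and 16.7 RPKM in Ucp1-KO iBAT and 19.1, 21.0 and 25.3 RPKM in wild-type iBAT, which did not overlap. The genotype differences were -0.46 ± 0.07 at 20 °C, -0.32 ± 0.07 at 30 °C and -0.43 ± 0.07 with high fat diet (limma, adjusted p = 1.8e-06, 0.00018 and 2.2e-06). In iWAT its genotype differences were -0.10 ± 0.06, 0.09 ± 0.06 and -0.10 ± 0.06, none past the test. Mrpl49 shares exon bases on the opposite strand with Syvn1, and the sources used here do not say whether counting used strand.

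**Figure D4:**
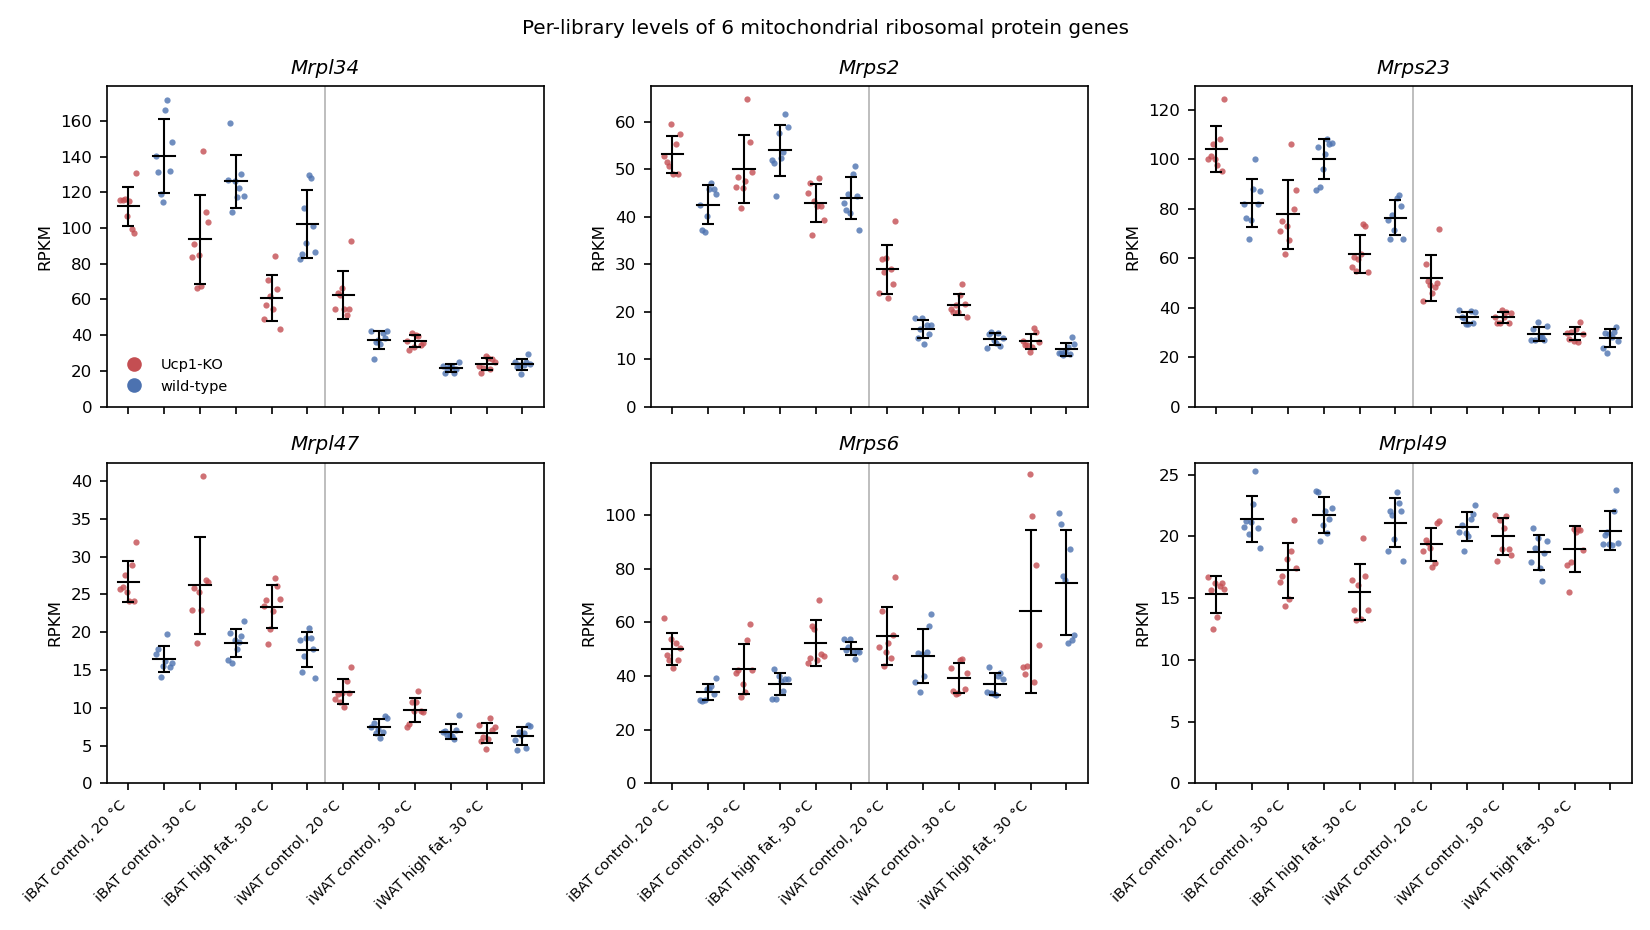
RPKM (vertical axes) of Mrpl34, Mrps2, Mrps23, Mrpl47, Mrps6 and Mrpl49 in each library, by tissue and condition, with Ucp1-KO left of wild-type within each pair and the labels under the Ucp1-KO position; points are libraries, lines group means and error bars SD (n = 8). For Mrpl34, Mrps2 and Mrps23 the iBAT libraries lie above the iWAT libraries of the same genotype and condition, while Mrpl49 stands at 12.5 to 25.3 RPKM across groups, with its lowest group means in Ucp1-KO iBAT.

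In iWAT, loss of Ucp1 went with higher levels on control diet. At 30 °C 43 of 75 genes tested were higher in Ucp1-KO iWAT and 0 lower, also 0 lower at an unadjusted p below 0.05 (background 7.54% higher and 16.2% lower). The median difference was 0.26, against -0.12 over all genes, and the difference was positive for all 75. For 16 genes the 8 Ucp1-KO libraries lay above the 8 wild-type libraries, as did 2.86% of all genes tested. Large subunit genes gave 27 of 49 and small subunit genes 16 of 26.

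At 20 °C 31 genes were higher and 1 lower in Ucp1-KO iWAT (background 9.85% and 55.0%), with a median of 0.17 against -0.27 over all genes. Median-ratio scaling gave 70 higher and quantile normalization 55, with medians over all genes of -0.01 and -0.02 and no share of all genes given. Between these comparisons, which share no libraries, 26 genes were called higher in both, which is 26 of the 43 at 30 °C and 26 of the 31 at 20 °C. Of all genes tested, 5.07% were called higher in both. Under high fat diet 0 of 75 genes passed limma's test in either direction, with 2 higher and 1 lower at an unadjusted p below 0.05 (background 0.195% and 0.0881%).

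Mrpl34 had 51.2, 58.8 and 92.7 RPKM in Ucp1-KO iWAT and 26.9, 37.7 and 42.6 RPKM in wild-type iWAT at 20 °C. On control diet at 30 °C it had 31.9, 36.0 and 41.4 RPKM in Ucp1-KO iWAT and 18.9, 22.1 and 25.1 RPKM in wild-type iWAT. With high fat diet it had 19.1, 23.9 and 28.3 RPKM in Ucp1-KO iWAT and 18.5, 23.6 and 29.4 RPKM in wild-type iWAT. The genotypes were apart in every library on control diet and overlapped on high fat diet. Its differences were 0.71 ± 0.10, 0.73 ± 0.10 and 0.01 ± 0.10, with adjusted p of 5.3e-08, 5.5e-07 and 0.99 by limma.

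Mrps2 rose by 0.78 ± 0.08 at 20 °C and 0.57 ± 0.08 at 30 °C on control diet, and had 0.17 ± 0.08 on high fat diet, which did not pass. Mrpl12 rose by 0.39 ± 0.11 and 0.69 ± 0.11, and Mrpl47 by 0.63 ± 0.10 and 0.44 ± 0.10. Mrps18b, a small subunit protein counted here as mitochondria-specific although its sequence resembles bacterial S18, rose by 0.63 ± 0.07 and 0.45 ± 0.07. Of its paralogs, Mrps18a rose by 0.28 ± 0.10 at 20 °C and had 0.21 ± 0.10 at 30 °C, and Mrps18c had 0.03 ± 0.10 and 0.15 ± 0.10, none of these last 3 past the test. Mrps22, which is mutated in human mitochondrial disease, rose by 0.44 ± 0.09 and 0.39 ± 0.09. The 1 fall at 20 °C was that of Mrpl52, by 0.35 ± 0.10, with 16.8, 21.8 and 26.4 RPKM in Ucp1-KO iWAT and 23.5, 26.7 and 34.4 RPKM in wild-type iWAT, which overlapped. After median-ratio scaling the Mrpl52 difference was 0.01.

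Brown adipocyte markers moved with these results. All 6 (Ucp1, Cidea, Elovl3, Dio2, Cox8b and Otop1) were higher in Ucp1-KO iWAT at both temperatures on control diet. Their sum was 1505 to 3833 RPKM in Ucp1-KO iWAT and 317 to 918 RPKM in wild-type iWAT at 20 °C, and 378 to 664 RPKM and 118 to 303 RPKM at 30 °C. Under high fat diet, where none passed the test, the sums were 62.6 to 144 RPKM in Ucp1-KO iWAT and 33.5 to 278 RPKM in wild-type iWAT. Ucp1, the disrupted gene, is counted among the 6 and in these sums, and no sum without it is given. Otherwise, 5 of 5 B cell markers were lower in Ucp1-KO iWAT at each temperature, with sums of 46.4 to 166 RPKM in Ucp1-KO iWAT and 187 to 321 RPKM in wild-type iWAT at 20 °C. Macrophage markers were lower for 7 of 10 at 20 °C and 5 of 10 at 30 °C. Their sums were 212 to 370 RPKM in Ucp1-KO iWAT and 329 to 598 RPKM in wild-type iWAT at 20 °C. Of all genes tested, 55.0% were called lower at 20 °C and 16.2% at 30 °C. The part of cell makeup in the result was not tested. With the library total as a covariate, 19 genes in place of 43 were higher at 30 °C.

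The genes were also higher at 20 °C than at 30 °C in iWAT. In Ucp1-KO mice 29 of 75 were higher and 2 lower (background 9.02% and 51.4%), with a median of 0.13 against -0.25 over all genes. In wild-type mice 28 were higher and 0 lower, also 0 lower at an unadjusted p below 0.05 (background 7.25% and 12.4%), with a median of 0.21 against -0.10. These comparisons share no libraries, and 16 genes were called higher in both, of 29 in Ucp1-KO and 28 in wild-type mice, against 4.80% of all genes tested. Without the 15 libraries of high total, 20 genes were higher and 4 lower in Ucp1-KO iWAT and 12 and 0 in wild-type iWAT. Median-ratio scaling gave 68 higher in Ucp1-KO and 46 in wild-type iWAT, and quantile normalization 59 and 48. Medians over all genes were then -0.02 and -0.02 after the scaling and -0.03 and -0.02 after the normalization. Shares of all genes called there are not given.

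Mrpl34 rose by 0.74 ± 0.10 in Ucp1-KO and 0.75 ± 0.10 in wild-type iWAT at 20 °C. Mrpl12 rose by 0.36 ± 0.11 and 0.65 ± 0.11, Mrpl16 by 0.63 ± 0.08 and 0.47 ± 0.08, and Mrpl51 by 0.42 ± 0.10 and 0.48 ± 0.10. Mrps34 rose by 0.16 ± 0.07 and 0.31 ± 0.07, and Mrps34 shares exon bases on the same strand with Nme3. The 2 falls in Ucp1-KO iWAT were those of Mrpl52, by 0.37 ± 0.10, and Mrpl45, by 0.31 ± 0.12, the second of which was 0.03 after median-ratio scaling. The 6 brown adipocyte markers, the disrupted gene Ucp1 included, were higher at 20 °C in both genotypes. In Ucp1-KO iWAT 5 of 10 macrophage markers were lower, with sums of 212 to 370 RPKM at 20 °C and 255 to 619 RPKM at 30 °C. Of the T cell markers 5 of 6 were lower. Since 51.4% of all genes tested were called lower there, the macrophage share was near the background. In wild-type iWAT no macrophage or T cell marker passed. The part of these cells was not tested.

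The difference in the temperature effect between genotypes was tested directly in iWAT. It passed for 1 gene upward and 2 downward (background 2.15% and 11.1%), or 8 and 0 after median-ratio scaling and 0 and 1 without the 15 libraries of high total. Mrps27, a small subunit protein with pentatricopeptide repeats, had 0.27 ± 0.09, Mrpl52 had -0.49 ± 0.14 and Mrps15 had -0.47 ± 0.13. Mrps15 had 23.6, 28.7 and 37.2 RPKM at 20 °C and 24.8, 33.4 and 40.8 RPKM at 30 °C in Ucp1-KO iWAT. In wild-type iWAT it had 28.0, 30.3 and 42.6 RPKM at 20 °C and 22.8, 25.6 and 28.4 RPKM at 30 °C, overlapping by a narrow margin.

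**Figure D5:**
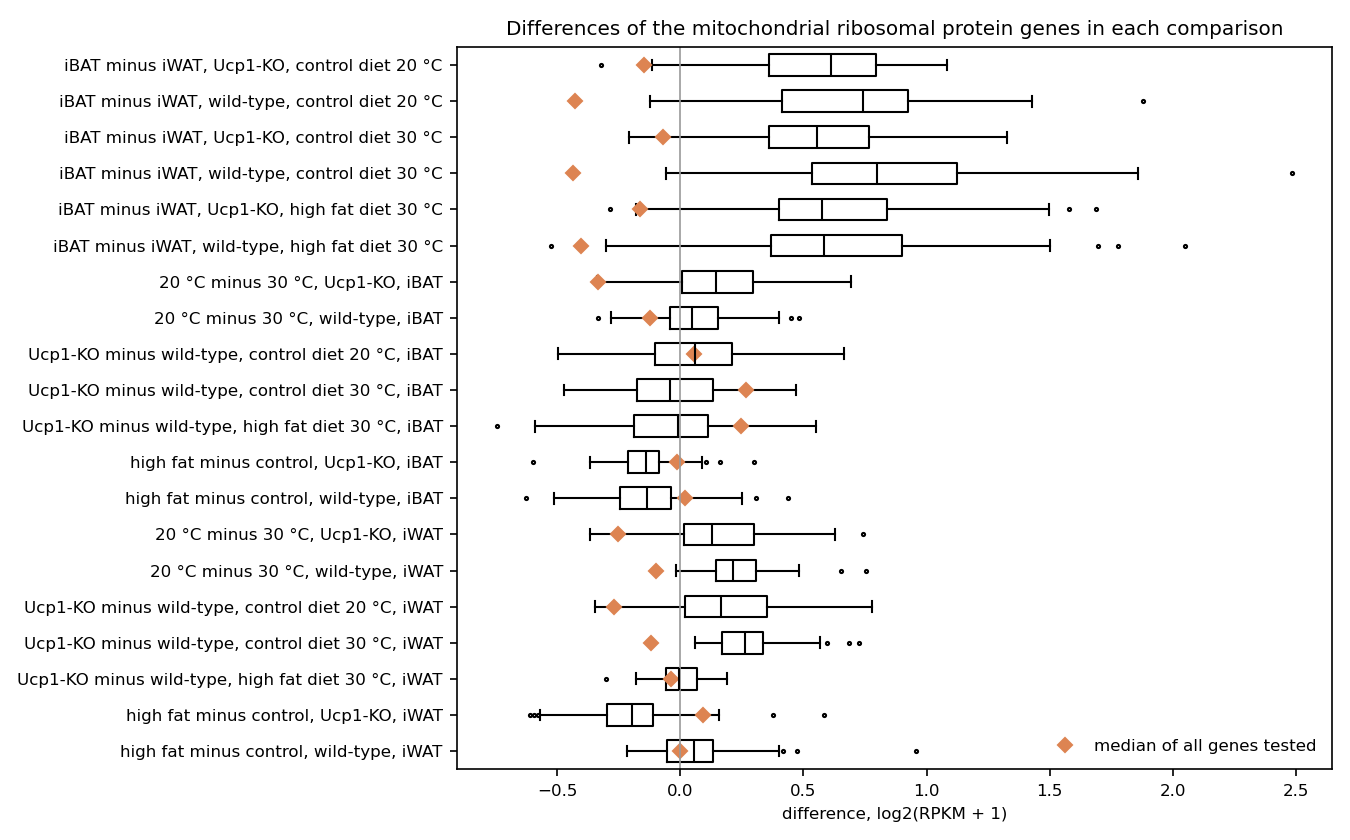
Differences in log2(RPKM + 1) (horizontal axis) of the mitochondrial ribosomal protein genes in each comparison (vertical axis), as box plots: the box spans the quartiles, its line is the median, and whiskers and dots show the genes outside it; diamonds mark the median of all genes tested. The boxes stand to the right of the all-gene median in the comparisons of depots and of temperature, and to its left in Ucp1-KO against wild-type iBAT at 30 °C.

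In iBAT some genes were higher and others lower in Ucp1-KO mice. At 20 °C 18 of 76 genes were higher and 8 lower in Ucp1-KO iBAT (background 24.7% and 13.1%), with a median of 0.06, equal to that over all genes. Both shares were thus near the background. On control diet at 30 °C 8 were higher and 14 lower (background 54.2% and 10.5%), with a median of -0.04 against 0.27 over all genes. With high fat diet 11 were higher and 17 lower (background 52.8% and 11.0%), with a median of -0.01 against 0.25. After median-ratio scaling, which brought the all-gene medians to 0.00, 0.02 and 0.01, there were 13 higher and 12 lower at 20 °C, 0 and 52 at 30 °C and 1 and 51 with high fat diet. The genes' medians were then -0.02, -0.37 and -0.30. Shares of all genes called after that scaling are not given.

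Without the 15 libraries of high total, 26 genes were higher and 5 lower at 20 °C, and 5 were higher and 41 lower at 30 °C on control diet. Of the falls at 30 °C, 11 were shared by the 2 diets, of 14 on control diet and 17 on high fat diet, and of the rises 7, of 8 and 11. Over all genes tested, 6.73% were called lower and 43.6% higher on both diets. These comparisons share no libraries.

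Mrpl39, a mitochondria-specific large subunit protein, had the largest fall at 30 °C on control diet. It had 31.8, 33.2 and 43.1 RPKM in Ucp1-KO iBAT and 43.1, 47.3 and 52.9 RPKM in wild-type iBAT, a difference of -0.47 ± 0.06 (limma, adjusted p = 1.6e-08). Under high fat diet it had 24.7, 27.1 and 36.5 RPKM in Ucp1-KO iBAT and 38.8, 42.7 and 49.4 RPKM in wild-type iBAT, a difference of -0.59 ± 0.06. With high fat diet the genotypes did not overlap. At 20 °C the fall was 0.21 ± 0.06.

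Mrpl34 fell by 0.31 ± 0.12 at 20 °C, 0.46 ± 0.12 at 30 °C and 0.74 ± 0.12 with high fat diet, whereas the same gene rose in Ucp1-KO iWAT on control diet. Mrpl50 fell by 0.50 ± 0.07 at 20 °C and 0.39 ± 0.07 at 30 °C. Mrps36 fell by 0.47 ± 0.13 and 0.41 ± 0.13, at levels of at most 2.38 RPKM in any iBAT library. Mrpl42, of the large subunit, fell by 0.26 ± 0.11 at 30 °C and 0.43 ± 0.11 on high fat diet.

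Mrpl27, which lies close to the peptidyl transferase centre, had the largest rise at 30 °C on control diet. It had 20.4, 23.6 and 30.4 RPKM in Ucp1-KO iBAT and 14.7, 17.6 and 20.1 RPKM in wild-type iBAT, without overlap, and a difference of 0.47 ± 0.10 (adjusted p = 0.00014 by limma). Mrpl27 shares exon bases on the opposite strand with Eme1, a DNA repair nuclease gene. Mrpl47 rose by 0.67 ± 0.09 at 20 °C, 0.45 ± 0.09 at 30 °C and 0.39 ± 0.09 with high fat diet, and Mrpl47 shares exon bases on the opposite strand with Actl6a and Ndufb5. Mrps30 rose by 0.40 ± 0.07, 0.33 ± 0.07 and 0.30 ± 0.07, and Mrps22 by 0.55 ± 0.07, 0.23 ± 0.07 and 0.21 ± 0.07. After median-ratio scaling Mrps30 had -0.01 on high fat diet. At 30 °C the Mrps22 differences were -0.09 on either diet after that scaling. Mrps18b rose by 0.51 ± 0.09, 0.28 ± 0.09 and 0.55 ± 0.09, with a 30 °C control diet value of -0.03 after that scaling.

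Other cell markers moved with genotype in iBAT. All 10 macrophage markers, Adgre1, Cd68 and Csf1r among them, were higher in Ucp1-KO iBAT at 30 °C on both diets. Their sum was 430 to 1907 RPKM in Ucp1-KO iBAT and 65.6 to 127 RPKM in wild-type iBAT on control diet, and 574 to 1341 RPKM and 58.7 to 209 RPKM on high fat diet. At 20 °C it was 59.5 to 293 RPKM and 27.1 to 42.4 RPKM, with 8 of 10 higher and 1 lower. All 6 T cell markers tested were higher at 30 °C on both diets. On control diet their sums were 8.15 to 39.0 RPKM in Ucp1-KO iBAT and 1.91 to 10.7 RPKM in wild-type iBAT. Of all genes tested, 24.7% were called higher at 20 °C, 54.2% at 30 °C on control diet and 52.8% on high fat diet. Brown adipocyte markers, Ucp1 included, summed to 2284 to 4689 RPKM in Ucp1-KO iBAT and 9825 to 12260 RPKM in wild-type iBAT at 30 °C. Ucp1 is the disrupted gene, so part of this difference is its own, and no sum without it is given. Under high fat diet 7 of 8 skeletal muscle markers were higher, with sums of 5.76 to 7706 RPKM in Ucp1-KO iBAT and 2.99 to 613 RPKM in wild-type iBAT. The part of these cells in the result was not tested.

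At 20 °C against 30 °C on control diet, more iBAT genes passed the test upward than downward in Ucp1-KO mice, while in wild-type mice 62 of 76 were not called. In Ucp1-KO iBAT 30 of 76 were higher at 20 °C and 4 lower (background 13.9% and 59.5%), with a median of 0.15 against -0.34 over all genes. In wild-type iBAT 11 were higher and 3 lower (background 11.6% and 33.0%), with a median of 0.05 against -0.12, and the share of higher calls was thus near the background. The wild-type median was -0.01 after division by the library total, -0.06 with that total as a covariate and -0.03 without the 15 libraries of high total. Of the rises, 7 were shared, of 30 in Ucp1-KO and 11 in wild-type mice, and 5.65% of all genes tested were called higher in both. Median-ratio scaling gave 70 higher and 0 lower in Ucp1-KO and 33 and 0 in wild-type iBAT. The genes' medians were then 0.55 and 0.21, against -0.04 and -0.01 over all genes, whose shares of calls are not given. Division by the library total gave 11 higher and 12 lower in wild-type iBAT. Without the 15 libraries of high total there were 52 higher and 3 lower in Ucp1-KO and 10 and 13 in wild-type iBAT.

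Markers of other cells moved with temperature in iBAT. In Ucp1-KO mice 10 of 10 macrophage markers were lower at 20 °C, with sums of 59.5 to 293 RPKM at 20 °C and 430 to 1907 RPKM at 30 °C. In wild-type mice 7 of 10 were lower, with 27.1 to 42.4 RPKM at 20 °C and 65.6 to 127 RPKM at 30 °C. T cell markers were lower for 6 of 6 in Ucp1-KO and 3 of 6 in wild-type iBAT, and endothelial markers for 6 of 6 and 5 of 6. Of all genes tested, 59.5% were called lower in Ucp1-KO and 33.0% in wild-type iBAT. The genotype difference of the temperature effect was negative for all 10 macrophage and all 6 T cell markers. Past the test it was negative for 40.5% of all genes tested, whose median was -0.24. Brown adipocyte markers summed to 4656 to 6211 RPKM at 20 °C and 2284 to 4689 RPKM at 30 °C in Ucp1-KO iBAT. In wild-type iBAT they summed to 5558 to 9023 RPKM and 9825 to 12260 RPKM. Ucp1, the disrupted gene, is counted in these sums. The part of these cells in the temperature results was not tested.

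The difference between the temperature effects was tested as an interaction, Ucp1-KO minus wild-type. It was positive past the test for 16 genes and negative for 1 (background 11.9% and 40.5%), with a median of 0.09 against -0.24 over all genes. Among small subunit genes 9 of 26 were positive, and among large subunit genes 7 of 49. The count of 16 became 44 without the 15 libraries of high total, 36 after median-ratio scaling and 29 under quantile normalization. The genes' medians were then 0.30, 0.33 and 0.23, against -0.25, -0.05 and -0.002 over all genes. Shares of all genes called under these alternatives are not given.

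Mrps23 had the largest such difference, 0.72 ± 0.12 (limma, adjusted p = 2.2e-06). In Ucp1-KO iBAT it had 95.5, 101 and 125 RPKM at 20 °C and 61.8, 74.2 and 106 RPKM at 30 °C. In wild-type iBAT it had 67.9, 82.0 and 100 RPKM at 20 °C and 87.8, 104 and 108 RPKM at 30 °C. It was thus high at 20 °C in Ucp1-KO and at 30 °C in wild-type mice, with overlap within each genotype. Its effect of 20 °C was 0.43 ± 0.08 in Ucp1-KO and -0.28 ± 0.08 in wild-type iBAT, both past the test. The next were Mrpl15 with 0.47 ± 0.14, Mrpl4, which lines the peptide tunnel, with 0.45 ± 0.10 and Mrps2 with 0.43 ± 0.10. Mrpl27 was the 1 gene with a negative difference, -0.49 ± 0.15, since it rose by 0.48 ± 0.10 at 20 °C in wild-type iBAT and had 21.2, 21.8 and 32.5 RPKM at 20 °C and 14.7, 17.6 and 20.1 RPKM at 30 °C there.

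Mrpl10, which anchors Mrpl12 to the large subunit, had the largest rise at 20 °C in Ucp1-KO iBAT, 0.69 ± 0.07, and rose by 0.40 ± 0.07 in wild-type iBAT. It had 56.9, 66.6 and 72.1 RPKM at 20 °C and 33.5, 39.3 and 46.5 RPKM at 30 °C in Ucp1-KO iBAT. In wild-type iBAT it had 57.7, 62.5 and 68.9 RPKM at 20 °C and 42.5, 47.7 and 52.5 RPKM at 30 °C. The temperatures did not overlap in either genotype. Mrpl12 itself had -0.09 ± 0.10 and -0.03 ± 0.10, neither past the test. Mrps18a rose by 0.50 ± 0.11 in Ucp1-KO and 0.45 ± 0.11 in wild-type iBAT. The 4 falls in Ucp1-KO iBAT, those of Mrpl22, Mrpl52, Mrpl48 and Mrpl49, lay between -0.34 and -0.16 and were above 0 after median-ratio scaling.

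Under high fat diet, lower calls outnumbered higher ones in Ucp1-KO iWAT and wild-type iBAT, while in wild-type iWAT and Ucp1-KO iBAT few genes passed. In Ucp1-KO iWAT 2 of 75 genes were higher and 31 lower on high fat diet (background 16.1% and 8.31%), with a median of -0.20 against 0.09 over all genes. In wild-type iWAT 7 were higher and 0 lower, with 2 lower at an unadjusted p below 0.05 (background 9.69% and 3.84%), and a median of 0.06 against 0.00. The share of higher calls was near the background. Quantile normalization gave 5 higher and 2 lower there, division by the library total 8 and 3, and the total as a covariate 8 and 7. In Ucp1-KO iBAT 1 of 76 was higher and 8 lower (background 8.35% and 8.02%), with a median of -0.14 against -0.01, a share of lower calls near the background. Lower calls there numbered 3 in a fit of only the groups compared, 14 under quantile normalization, 18 after division by the library total and 29 with that total as a covariate. Without the 15 libraries of high total 3 were higher and 6 lower. In wild-type iBAT 2 were higher and 20 lower (background 18.5% and 14.5%), with a median of -0.14 against 0.02, or 38 lower without those libraries. Endothelial markers were higher for 6 of 6 in wild-type iBAT, with sums of 319 to 417 RPKM on high fat diet and 199.9 to 255 RPKM on control diet. Their part was not tested.

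In Ucp1-KO iWAT the largest falls on high fat diet were those of Mrps2, by 0.61 ± 0.08, Mrpl34, by 0.59 ± 0.10, Mrpl12, by 0.58 ± 0.11, and Mrpl55, by 0.57 ± 0.10. Mrpl12 had 33.4, 36.1 and 41.2 RPKM on high fat diet and 45.2, 55.3 and 73.4 RPKM on control diet in Ucp1-KO iWAT, without overlap. In wild-type iWAT Mrpl12 had 27.0, 32.4 and 45.5 RPKM on high fat diet and 30.9, 33.3 and 38.3 RPKM on control diet, which overlapped. The 6 brown adipocyte markers also fell in Ucp1-KO iWAT, to sums of 62.6 to 144 RPKM on high fat diet, against 378 to 664 RPKM on control diet. These sums include Ucp1, the disrupted gene. Skeletal muscle markers were lower on high fat diet for 5 of 7 in both genotypes of iWAT, with sums of 12.1 to 534 RPKM on high fat diet and 16.9 to 6185 RPKM on control diet in Ucp1-KO mice, and their part in the result was not tested.

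The difference of the diet effects, Ucp1-KO minus wild-type, passed in iWAT for 5 genes, all negative (background 0.101% higher and 1.23% lower). These were Mrpl34 with -0.71 ± 0.13, Mrpl55 with -0.71 ± 0.14, Mrps18b with -0.45 ± 0.10, Mrpl28 with -0.45 ± 0.12 and Mrpl10 with -0.33 ± 0.08. The median over the 75 genes was -0.27, against 0.08 over all genes, and 17 genes passed without the 15 libraries of high total, 3 after median-ratio scaling and 11 under quantile normalization. In iBAT 0 of 76 passed by limma, with 1 higher and 2 lower at an unadjusted p below 0.05 (background 2.78% and 3.78%), and 10 were higher without those libraries.

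In iBAT on high fat diet, Mrps18c had -0.35 ± 0.13 in Ucp1-KO mice, short of the test, and the largest fall in wild-type mice, by 0.62 ± 0.13. It had 9.28, 11.6 and 18.6 RPKM on high fat diet and 15.2, 20.8 and 22.7 RPKM on control diet in wild-type iBAT, which overlapped. Mrpl34 fell by 0.60 ± 0.12 in Ucp1-KO and 0.31 ± 0.12 in wild-type iBAT, and Mrpl19 by 0.36 ± 0.08 and 0.50 ± 0.08.

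Mrps6 rose on high fat diet in all 4 comparisons. In iWAT it had 37.7, 47.7 and 115 RPKM on high fat diet and 33.3, 38.3 and 46.5 RPKM on control diet in Ucp1-KO mice, and 52.2, 76.6 and 101 RPKM and 33.0, 36.3 and 43.2 RPKM in wild-type mice. The diets overlapped in Ucp1-KO iWAT and not in wild-type iWAT. The rises were 0.58 ± 0.17 in Ucp1-KO iWAT, 0.96 ± 0.17 in wild-type iWAT, 0.30 ± 0.09 in Ucp1-KO iBAT and 0.44 ± 0.09 in wild-type iBAT. Since Mrps6 shares exon bases with Slc5a3, these values are uncertain as values of Mrps6. Mrpl54 rose by 0.38 ± 0.10 in Ucp1-KO and 0.47 ± 0.10 in wild-type iWAT.

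Over the 12 group means of log2(RPKM + 1), most genes followed the mean of the other 75. Mrps14 had r = 0.99 with it, and Mrpl46, Mrpl51 and Mrps7 followed with 0.99 each. The least like were Mrps6 with -0.37, Mrpl49 with -0.25, Mrps26 with -0.09 and Mrpl52 with 0.32. These are descriptions over 12 points that share the split between depots.

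Other genes of mitochondrial translation were higher in iBAT too. At 30 °C on control diet, 11 of 14 translation factors were higher in iBAT and 1 lower in each genotype (background 26.3% and 35.8% in Ucp1-KO and 19.5% and 61.8% in wild-type mice). Gfm1, an elongation factor of the mitochondrial ribosome, was higher by 1.42 ± 0.08 in Ucp1-KO and 2.00 ± 0.08 in wild-type mice. Lrpprc, which stabilises mitochondrial messenger RNA, was higher by 1.04 ± 0.07 and 1.50 ± 0.07. Of 20 genes of mitochondrial tRNA charging, 9 were higher and 2 lower in Ucp1-KO and 11 and 0 in wild-type mice. Of 20 ribosome assembly factors, 12 were higher and 0 lower in Ucp1-KO and 15 and 1 in wild-type mice. Of the 6 ribosomal proteins with other symbols that were tested, 5 were higher in Ucp1-KO and 6 in wild-type mice, with Ptcd3 at 0.83 ± 0.08 and 1.33 ± 0.08.

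Among regulators, Ppargc1a, a coactivator of mitochondrial genes, was higher in iBAT by 3.26 ± 0.19 in Ucp1-KO and 4.52 ± 0.19 in wild-type mice, and the nuclear receptor Esrra by 1.31 ± 0.13 and 2.13 ± 0.13. Nrf1 had -0.27 ± 0.12 in Ucp1-KO mice, which did not pass, and was lower in iBAT by 0.93 ± 0.12 in wild-type mice. Polrmt, the mitochondrial RNA polymerase, was higher by 0.62 ± 0.11 and 0.73 ± 0.11.

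Within tissues, calls among the translation factors varied by comparison. In Ucp1-KO against wild-type iWAT, 9 of 14 were higher and 2 lower at 20 °C (background 9.85% and 55.0%) and 6 and 0 at 30 °C (background 7.54% and 16.2%), with Gfm1 at 1.00 ± 0.08 and 0.54 ± 0.08. In Ucp1-KO against wild-type iBAT at 30 °C, 0 were higher and 8 lower (background 54.2% and 10.5%), with Taco1, an activator of cytochrome oxidase translation, at -0.51 ± 0.07. At 20 °C against 30 °C in Ucp1-KO iBAT, 10 of 14 translation factors and 13 of 20 charging genes were higher and 1 and 3 lower (background 13.9% and 59.5%). In wild-type iBAT these were 2 and 10 higher and 0 and 3 lower (background 11.6% and 33.0%), so that the translation factors were near the background. The genotype difference of the temperature effect was positive for 8 translation factors and 11 charging genes. It was negative for 1 and 0 (background 11.9% positive and 40.5% negative), with Mtif2, an initiation factor, at 0.68 ± 0.11. Ppargc1a had 3.19 ± 0.34 in that comparison, Esrra 0.36 ± 0.17 and Tfam 0.33 ± 0.10, of which Esrra did not pass.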

How the data were processed

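The deposited file gave RPKM per transcript for 96 libraries prepared, per the labels' protocols, with the TruSeq Stranded mRNA kit. Per the submitters' processing notes, CASAVA and bcl2fastq were used. The sources used here name no aligner, counter, build or strand setting. The deposited RPKM values are the authors' own. Of 168326 transcript rows, 13.76% (9.85% of the RPKM) had no gene identifier and were left out. Per symbol the row of highest mean was kept; the 76 genes had 2 to 16 rows (median 6), of which 19 genes had identical rows. Reads per library were recovered from the steps of low values, 95% to 95.9% of which came out whole within 0.05 of a read, and are 8.91 to 19.2 in units of 1000000. This spacing was used for depth only, and no count test was run on it.

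A gene entered a fit where 8 or more of its libraries had 0.5 RPKM or more. Testing was on log2(RPKM + 1) with limma 3.58.1 (trend, R 4.3.3, package data.table at 1.17.8): 14807 in iBAT, 15897 in iWAT and 16310 over both tissues. Fold changes on this scale understate the change of low genes. All groups of a fit shared the spread, and p-values were Benjamini-Hochberg adjusted over all genes tested, with a threshold of 0.05. Of the 76 genes, 76 passed the filter in iBAT and 75 in iWAT, where Mrps36 did not. The scripts were tested on simulated data. Tables and figures used Python 3.11.15, pandas 2.3.3, numpy 2.4.6 and matplotlib 3.10.9. Animals of a group are separate mice per the series design, and the labels give no batch.

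Genes were named by rule: per comparison the 10 largest rises and falls among those called, the 10 highest and lowest levels, the 10 most and least like the others, and a list of genes of known role. The members and lists were chosen with earlier results of these data known. Alternatives were another pseudocount, no filter, median-ratio scaling, quantile normalization, summed transcripts and fits of only the groups compared; 3 more on the library total were chosen after seeing the data. Positions and exon overlaps are from GENCODE vM21 and promoters from RefSeq.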

Additional observations from a re-analysis of the deposited data

Results flagged for a closer look

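In 15 of 156 groups of 8 values the highest library stood apart by Dixon's criterion, which chance does in about 1 group in 20. The 156 groups reuse the same libraries for several quantities, so the flags are not independent and their number cannot be set against that rate. In Ucp1-KO iBAT at 20 °C the highest sum and the highest Mrps23 value came from the same library. So did the highest sum and the highest Mrpl34 value in Ucp1-KO iWAT at 20 °C. The summed level of the 76 genes did so in Ucp1-KO mice at 20 °C, at 4378 RPKM in iBAT and 3124 RPKM in iWAT. In Ucp1-KO iBAT at 20 °C, Mrpl12 did so at 142.1 RPKM, Mrps23 at 124.6 RPKM, Mrpl42 at 127.8 RPKM and Mrps36 at 0.9425 RPKM. In Ucp1-KO iWAT at 20 °C, Mrpl34 did so at 92.65 RPKM, Mrpl12 at 111.3 RPKM and Mrps36 at 1.17 RPKM. In Ucp1-KO iBAT at 30 °C on control diet it was Mrpl47 at 40.64 RPKM. In wild-type mice they were Mrpl34 at 158.8 RPKM in iBAT and Mrpl47 at 9.053 RPKM in iWAT at 30 °C on control diet. On high fat diet they were Mrpl27 at 24.4 RPKM in wild-type iBAT, and Mrpl12 at 45.54 RPKM and Mrpl42 at 41.42 RPKM in wild-type iWAT.

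The genotypes differed in the effect of temperature in iBAT for 17 genes by limma's interaction test. The Ucp1-KO effect minus the wild-type effect, on the log2 scale, was 0.715 for Mrps23, 0.47 for Mrpl15, 0.446 for Mrpl4, 0.428 for Mrps2, 0.426 for Mrpl14 and 0.42 for Mrps10. It was 0.371 for Mrps24, 0.359 for Mrps6, 0.345 for Mrps5, 0.33 for Mrpl43, 0.324 for Mrps22 and 0.307 for Mrps27. It was 0.296 for Mrpl10, 0.259 for Mrpl39, 0.237 for Mrps31 and 0.235 for Mrpl16, and -0.493 for Mrpl27. In iWAT it was -0.486 for Mrpl52, -0.473 for Mrps15 and 0.265 for Mrps27. The genotypes differed in the effect of high fat diet in iWAT by -0.715 for Mrpl34, -0.713 for Mrpl55, -0.451 for Mrps18b, -0.448 for Mrpl28 and -0.33 for Mrpl10.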

How the results depend on the processing

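No paired analysis was possible because library numbers run from 1 to 96 without repeating between groups. Of 343 gene results, 341 kept direction and call with a pseudocount of 0.1, 329 with no filter, 336 with summed transcripts, 325 in fits of only the groups compared, 299 under median-ratio scaling and 310 under quantile normalization. With alternatives chosen after seeing the data they were 338 (values divided by the library total), 324 (total as covariate) and 319 (without the 15 libraries of high total). Counts of genes past the threshold that moved by over 1.5 times follow, and the cause was not tested. Shares of all genes called under these alternatives are not given, so the counts have no background beside them.

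Median-ratio scaling gave, at 20 °C against 30 °C, 70 higher in Ucp1-KO iBAT, 33 in wild-type iBAT, 68 in Ucp1-KO iWAT and 46 in wild-type iWAT. Quantile normalization gave 62, 28, 59 and 48 for these. In Ucp1-KO against wild-type, the scaling and the normalization gave 52 and 46 lower in iBAT at 30 °C, 51 and 52 lower on high fat diet, and 70 and 55 higher in iWAT at 20 °C. The genotype difference of the temperature effect was positive for 36 and 29 in iBAT, and negative for 0 and 0 in iWAT. That of the diet effect in iWAT was negative for 3 and 11. High fat diet gave 4 higher in wild-type iWAT under the scaling, and 14 lower in Ucp1-KO iBAT and 48 lower in Ucp1-KO iWAT under the normalization. Fits of only the groups compared gave, on high fat diet, 3 lower in Ucp1-KO iBAT, 11 higher in wild-type iWAT and 11 negative differences of the diet effect in iWAT.

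With the total as covariate, 47 genes were higher at 20 °C in Ucp1-KO iBAT, 47 in Ucp1-KO iWAT and 15 in wild-type iWAT. Ucp1-KO iBAT had 37 higher at 20 °C and 31 lower at 30 °C, and Ucp1-KO iWAT 19 higher at 30 °C and 1 on high fat diet. High fat diet gave 29 lower in Ucp1-KO and 47 in wild-type iBAT. The genotype difference of the temperature effect was positive for 44 in iBAT and negative for 1 in iWAT, and that of the diet effect positive for 4 in iBAT and negative for 2 in iWAT. Division by the total gave 25 lower in Ucp1-KO iBAT at 30 °C, 18 and 34 lower on high fat diet in Ucp1-KO and wild-type iBAT, and 27 positive differences of the temperature effect in iBAT. Without the 15 libraries, 52 were higher at 20 °C in Ucp1-KO iBAT and 12 in wild-type iWAT, 41 lower in Ucp1-KO iBAT at 30 °C and 38 lower on high fat diet in wild-type iBAT. The temperature differences were then positive for 44 in iBAT and negative for 1 in iWAT, and the diet differences positive for 10 in iBAT and negative for 17 in iWAT.

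Single genes changed direction under the 2 scalings only. At 20 °C in Ucp1-KO iBAT, Mrpl22 had 0.048 under median-ratio scaling and 0.093 under quantile normalization, Mrpl48 0.232 and 0.214, Mrpl49 0.237 and 0.211, and Mrpl52 0.099 under the first. In Ucp1-KO iBAT at 30 °C, Mrps18b had -0.034 and -0.081, Mrps22 -0.094 and -0.036, Mrpl19 -0.121 and -0.102, and Mrps18a -0.038 under the first. On high fat diet Mrps22 had -0.087 and -0.075, and under the first Mrps30 had -0.007 and Mrps17 -0.036. Under the first, Mrpl45 had 0.032 at 20 °C in Ucp1-KO iWAT, Mrpl52 0.012 in Ucp1-KO iWAT at 20 °C and Mrps6 0.111 between depots of wild-type mice at 20 °C. Mrps26 had 0.177 and 0.104 between depots of wild-type mice on high fat diet. Depth limits the low genes most, such as Mrps36.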
